A study of Mus musculus with 38 samples.

Results

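Ribosome footprints of 9 genes that are widely used to mark astrocytes were followed through PL-Ribo-seq of mouse cortical neuron cultures. The genes were Slc1a2, Slc1a3, Gfap, Aldoc, Glul, Sparcl1, Apoe, Clu and Aqp4, which were chosen by name out of 22443 genes with a coding sequence (CDS), and all 9 had counts. In PL-Ribo-seq, TurboID, a biotin ligase, tags nearby proteins with biotin, tagged monosomes are captured on streptavidin, and the mRNA fragments that their ribosomes protect are sequenced. The cultures came from the cortex of mid-gestation CD-1 mouse embryos, several dishes were pooled for a sample, and libraries were made from input, a part of all monosomes, and from pulldown. All cultures received a TurboID lentivirus, cycloheximide for 2 min and biotin for 30 min according to the labels. The study's methods give a shorter time with biotin after DHPG. The ligase was under a doxycycline-inducible promoter, which is not specific to neurons. TurboID-PSD95 is carried to dendrites by PSD95 and its untranslated regions (UTRs), and Pan-TurboID has no such signal.

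The KCl experiment held 24 libraries, with 3 inputs and 3 pulldowns for each bait at rest and after depolarization by KCl (55 mM, 1 h). In the DHPG experiment, TurboID-PSD95 cultures received 100 µM DHPG, which activates metabotropic glutamate receptors, for 10 min and gave 3 inputs and 3 pulldowns. In the knockdown experiment, TurboID-PSD95 cultures received siRNA against eIF4G2 (20 nM, 72 h), and 2 inputs and 2 pulldowns were made at rest and again after KCl, 8 libraries in all. Cultures were silenced with tetrodotoxin and DL-AP5 for 2 h before KCl or DHPG, which the resting cultures were not. Neither a resting group of the DHPG experiment nor a control siRNA was analysed here, so DHPG and knockdown libraries were set against the KCl experiment, and treatment and experiment cannot be told apart there. Replicates are libraries with separate numbers in the labels. According to the study's methods the replicates of PL-Ribo-seq were biological, while the labels do not say which libraries share a culture, and p-values measure the spread between these libraries. Replicates mostly lay closer to each other with DHPG and knockdown than in the KCl experiment, so FDRs are not comparable between experiments.

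Astrocytes take up the glutamate that neurons release, convert it to glutamine and return it, and they supply neurons with lipid in lipoprotein particles. Slc1a2 (GLT-1) and Slc1a3 (GLAST) are the glutamate transporters of this cycle, and Glul is glutamine synthetase. Gfap is the intermediate filament protein of astrocytes, Aldoc is the brain form of the glycolytic enzyme aldolase, and Aqp4 is the water channel of astrocyte endfeet. Apoe and Clu are secreted lipid-binding proteins, and Sparcl1 (hevin) is a secreted matrix protein that acts at synapses. These genes mark astrocytes to different degrees, since neurons can also express Clu, Sparcl1 and Slc1a2 mRNA, and oligodendrocytes and microglia can express Glul and Apoe.

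Levels are given as CPM, the counts in the CDS of the longest transcript of each gene scaled to the library's total of such counts. Libraries held 2047334 to 14637676 such counts, and the members held between 2574 (Aqp4) and 71044 (Clu) over all 38 libraries. The checks of bait, KCl and knockdown went the way the labels give them, while DHPG had no check that did so. Dlg4, which encodes PSD95, was higher in TurboID-PSD95 than in Pan-TurboID pulldowns by 6.09 on the log2 scale (SE 0.53, FDR 9.5e-06), Fos rose after KCl in the inputs by 3.10 (SE 0.29, FDR 1.0e-07), and Eif4g2 was lower with knockdown by 1.92-fold (FDR 4.1e-05). The TurboID-PSD95 virus carries PSD95 sequence, so its footprints and those of the cells' own Dlg4 were not told apart. Fos was at 37.6 to 41.4 CPM in DHPG inputs, below the 180 to 2971 CPM of all KCl experiment inputs, resting ones included. The paper reports similar expression of immediate early genes with KCl and DHPG by qPCR. FDR is the Benjamini-Hochberg adjusted p of edgeR's quasi-likelihood F test over all genes tested, with 0.05 as the threshold. Log2 differences of edgeR use TMM scaling between libraries, while CPM and the ratios of pairs use totals alone. A fitted difference can therefore depart from the CPM values in size and, when small, in sign. A list of 40 other astrocyte genes summed to 1796 to 4021 CPM in the KCl inputs and a list of 16 neuron markers to 13690 to 16650 CPM. In the KCl experiment, the resting inputs of replicate 1 held the highest sums of the other astrocyte list (3525 CPM with Pan-TurboID and 4021 with TurboID-PSD95), of radial glia genes (4537 and 4966 CPM), of reactive astrocyte genes (97.9 and 71.2 CPM) and of endothelial and mural markers (263 and 351 CPM, against 24.7 to 184 in the other 10 inputs). For the 9 members the lead was small (2594 and 2815 CPM, against up to 2585), and the oligodendrocyte list was highest in a resting input of replicate 2.

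The first 30 bases of the CDS are shown for the secreted and the cytosolic members, since secreted proteins usually begin with a stretch of hydrophobic residues. They are printed 5′ to 3′ with the start codon in lower case, and a capital marks a T in the middle of a codon after the start codon, which in the genetic code always stands for a hydrophobic residue.
Apoe: atgaaggctcTgtgggccgTgcTgtTggTc
Clu: atgaagaTtcTccTgcTgtgcgTggcacTg
Sparcl1: atgaaggctgTgcTtcTccTccTgtgcgcc
Gfap: atggagcggagacgcaTcacctctgcgcgc
Aldoc: atgccccactcatacccagctcTttctgct
Glul: atggccacctcagcaagttcccactTgaac
On GRCm38 (mm10), these lie at chr7:19698201-19698230 on the minus strand for Apoe, chr14:65971759-65971788 on the plus strand for Clu and chr5:104097733-104097762 on the minus strand for Sparcl1. Those of the cytosolic proteins lie at chr11:102897088-102897117 on the minus strand for Gfap, chr11:78324402-78324431 on the plus strand for Aldoc and chr1:153902947-153902976 on the plus strand for Glul. All 6 stretches are coding exon sequence. Of the 9 codons after the start codon, 5 had such a T in Apoe, 6 in Clu and 5 in Sparcl1, and 1 each in Gfap, Aldoc and Glul. Over 21760 genes the median was 2, and 9.99% of genes had at least 5. The capitals describe the letters only and mark no proven signal sequence.

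The members spanned a wide range of levels within the KCl experiment. Compared per kilobase of CDS, which is needed between genes, the median level of the 12 inputs was highest for Apoe (401 CPM per kb), followed by Clu (247), Sparcl1 (196), Slc1a2 (171), Slc1a3 (133), Glul (126) and Aldoc (43.3). Gfap (12.97) and Aqp4 (7.32) were far lower. Neighbours in this order overlapped over the inputs to different extents. Glul (74.5 to 179 CPM per kb) shared the range from 103 to 179 with Slc1a3 (103 to 325 CPM per kb). With Aldoc (22.6 to 99.7 CPM per kb) it shared only 74.5 to 99.7. Apoe ranged from 184 to 741 CPM with a median of 375, Clu from 210 to 638 with a median of 333, and Slc1a3 from 167 to 531 with a median of 217. Gfap varied most in fold among the 9, from 5.11 to 75.1 CPM (14.7-fold), followed by Aqp4, from 1.98 to 20.4 CPM (10.3-fold). Sparcl1 varied least, from 313 to 442 CPM (1.41-fold).

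**Figure D1:**
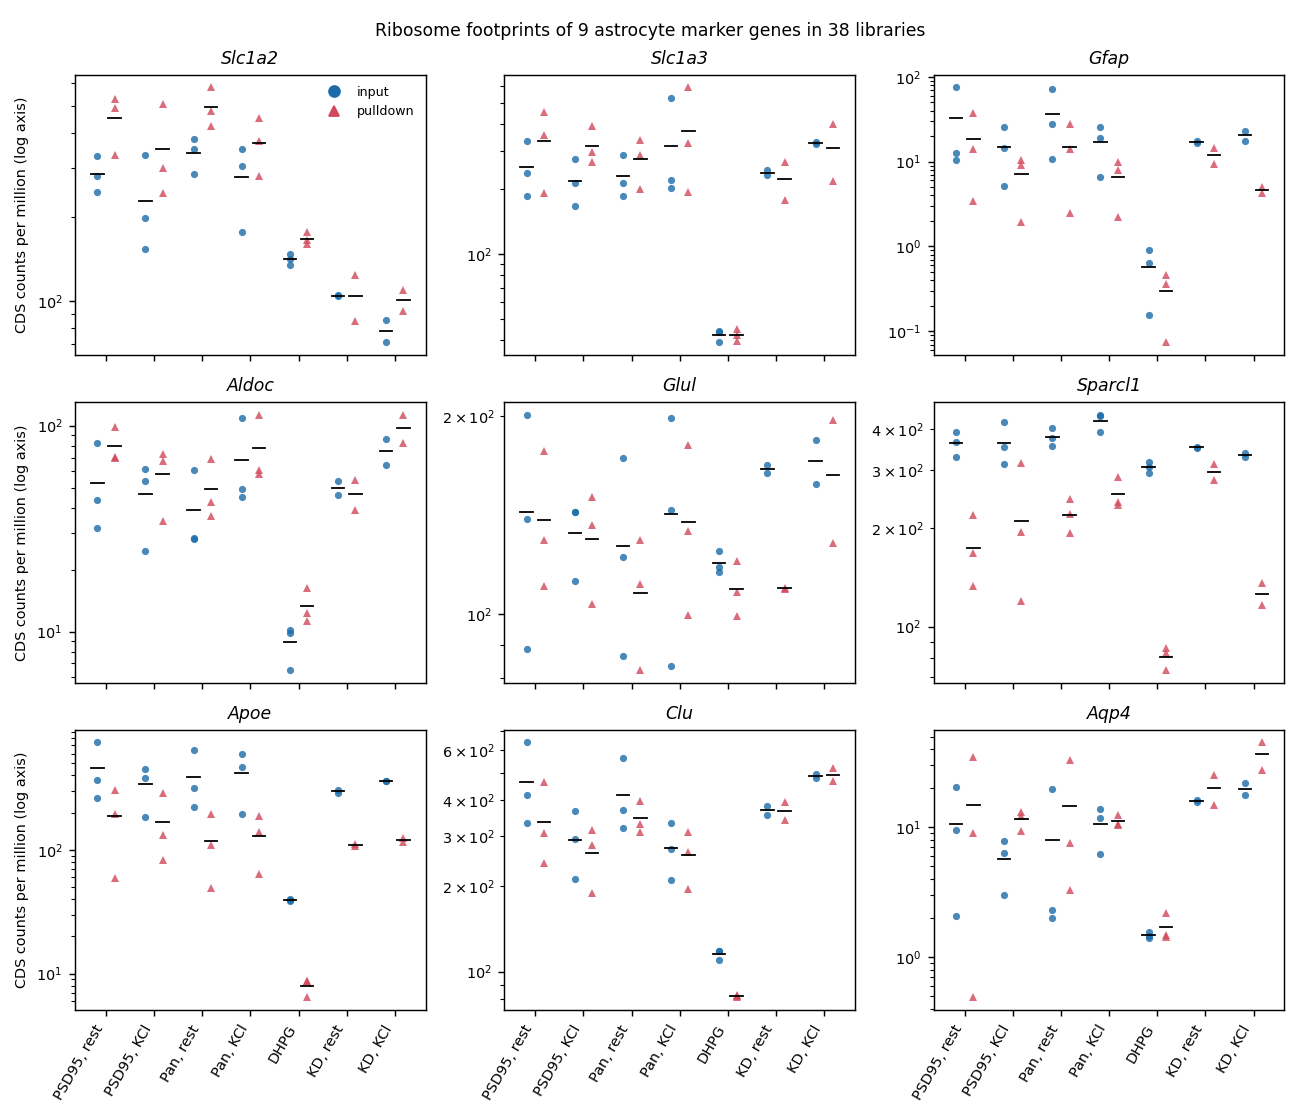
Levels of the 9 astrocyte marker genes in CPM of CDS counts (log axis, own scale per gene) in 7 kinds of culture. Circles are input and triangles pulldown libraries, and bars are means of 3 libraries (2 with knockdown, KD). The DHPG libraries lie below the other inputs for Slc1a3, Gfap, Aldoc, Apoe and Clu, while Glul and Sparcl1 inputs lie within or just below the range of the KCl experiment.

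The spread of Gfap in the KCl inputs went largely with the replicate number within a condition. At rest, Gfap was at 71.7, 27.7 and 10.7 CPM in Pan-TurboID replicates 1, 2 and 3 and at 75.1, 12.8 and 10.4 CPM in TurboID-PSD95 replicates 1, 2 and 3. After KCl it was at 6.645, 19.1 and 25.5 CPM with Pan-TurboID and at 5.11, 14.5 and 25.5 CPM with TurboID-PSD95. Over all genes, same-numbered inputs of the baits within a condition deviated together from their group means (r 0.28 to 0.65), while the same number at rest and after KCl did not (-0.20 to 0.16), and for Gfap the baits still differed in resting replicate 2. Apoe was at 638, 314 and 222 CPM (Pan-TurboID) and 741, 368 and 264 CPM (TurboID-PSD95) at rest. After KCl, Apoe was at 195, 593 and 467 CPM and at 184, 455 and 383 CPM, so that replicate 1 held the highest Apoe at rest and the lowest after KCl with both baits.

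The members did not all vary together. Over the 12 KCl inputs, where those of the same number in a condition deviate together, Pearson's r of log2 levels was 0.92 between Apoe and Glul and 0.90 between Slc1a3 and Aldoc. Slc1a2 stood apart, with r between 0.01 and 0.27 to the other 8 members. Set against the summed level of the other astrocyte list, r was 0.95 for Apoe, 0.88 for Gfap, 0.70 for Slc1a3, 0.37 for Sparcl1 and -0.02 for Slc1a2. Lists of other cell types gave values above 0.8 as well, with 0.91 for Gfap and 0.83 for Apoe against the endothelial and mural list, 0.82 for Gfap against microglia and 0.84 for Slc1a2 against fibroblasts. These correlations describe 12 libraries and carry no test.

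The lowest levels of most members were found with DHPG. Compared with resting TurboID-PSD95 inputs, 5 members fell and none rose of the 8 that passed the filter on low counts within both the DHPG and the KCl experiment. Of the 12141 genes that did so, 32.7% passed the test in either direction and 15.7% fell, against 32.8% and 16.5% of all 12788 genes tested. Slc1a3 was at 39.2, 43.8 and 44.4 CPM in the DHPG inputs, against 335, 238 and 187 CPM at rest. Apoe was at 40.4, 39.1 and 38.7 CPM, against 741, 368 and 264 CPM. Neither gene overlapped between the groups, and the share of all genes without overlap was not counted. The log2 difference was -2.48 for Slc1a3 (SE 0.27, FDR 3.0e-05) and -3.43 for Apoe (SE 0.56, FDR 0.0015), a 5.57-fold and a 10.8-fold lower level.

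Gfap was close to undetected with DHPG, at 7, 1 and 4 counts in the 3 inputs. Summed, these 12 counts gave 0.591 CPM (95% Poisson interval 0.305 to 1.03, counting error only). The 3 resting inputs were at 75.1, 12.8 and 10.4 CPM. Their summed counts gave 49.1 CPM (46.2 to 52.1), where replicate 1 held 978 of the 1085 counts. None of the 3 libraries lay within that interval. Gfap passed the filter through the resting libraries alone, so no test of it is given. Aldoc fell by 2.49 on the log2 scale (SE 0.31, FDR 3.5e-05) and was at 9.87, 6.52 and 10.2 CPM, against 82.6, 43.7 and 32.0 CPM. Clu fell by 1.90 (SE 0.22, FDR 2.7e-05) and was at 118, 118 and 110 CPM, against 638, 333 and 416 CPM.

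Of the other members, Slc1a2 alone passed. It fell by 0.92 (SE 0.14, FDR 0.00016) and was at 141, 134 and 147 CPM, against 331, 279 and 245 CPM at rest. Sparcl1, at 295, 317 and 306 CPM against 391, 364 and 329 CPM, differed by -0.14 (SE 0.13, FDR 0.45, 95% interval -0.40 to 0.12). Glul, at 118, 116 and 125 CPM against 201, 139 and 88.7 CPM, differed by -0.16 (SE 0.22, FDR 0.60). Aqp4 was at 1.56, 1.40 and 1.46 CPM against 20.4, 9.55 and 2.08 CPM, and its log2 difference of -2.81 (SE 1.00) had an FDR of 0.054. It passed without resting replicate 1 (-1.94, FDR 0.040), without resting replicate 3 (-3.25, FDR 0.00052) and with DESeq2 (-2.70, adjusted p = 0.036). It also passed with the likelihood ratio test (-2.74, FDR 0.022) and with the replicate number as a block (-2.06, FDR 0.00051), which does not pair the DHPG libraries. Aqp4 did not pass without resting replicate 2 or without any 1 DHPG replicate, and its DHPG inputs held 9 to 12 counts. Per kilobase, the order of the DHPG inputs was led by Sparcl1 (157 CPM per kb), Glul (105), Clu (87.5) and Slc1a2 (82.2), with Apoe at 41.8 and Gfap last.

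**Figure D2:**
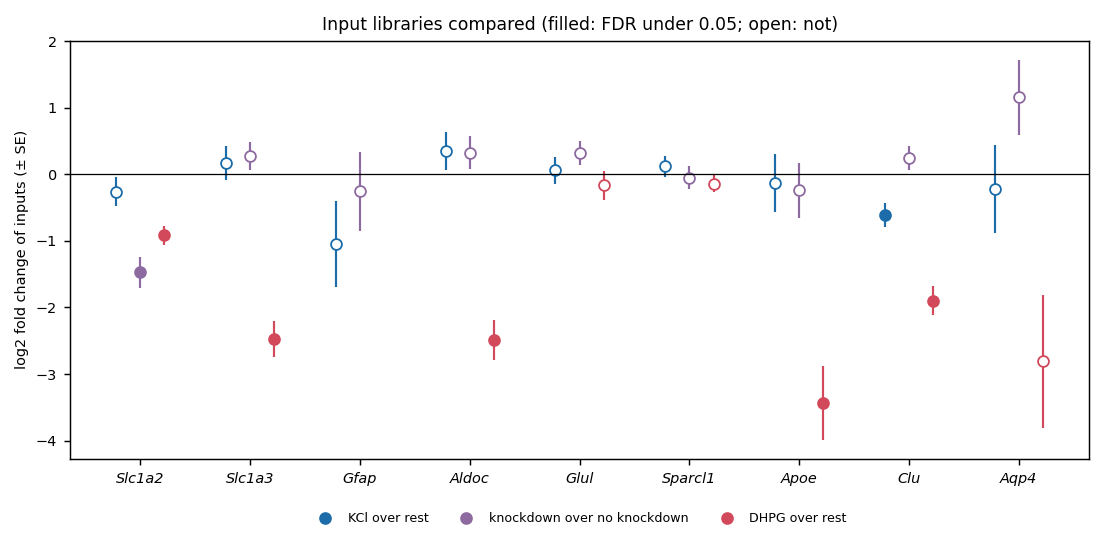
Log2 fold changes of the 9 astrocyte marker genes in input libraries with standard errors, for KCl over rest (12 libraries), knockdown over no knockdown (10 libraries) and DHPG over rest (6 libraries). Filled circles passed an FDR of 0.05, and Gfap with DHPG, for which no test is given, is left out. With DHPG, the 5 members that passed lay between -0.92 and -3.43, while Sparcl1 and Glul lay at -0.14 and -0.16.

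Lists for the same and for other cell types were counted beside the members, over genes that passed the filter within both experiments. The lists used here and below were chosen with earlier results of these data known, so they are not independent support. Of the other astrocyte list, 30 of 40 genes did so and 21 fell while 3 rose with DHPG, with a median log2 difference of -1.56 against 0.00 over all such genes. The 3 with the smallest p were Bcan (-3.13), a matrix proteoglycan, and Sox9 (-2.64) and Id3 (-3.14), which are transcription regulators of glial fate. Of 11 genes of radial glia and immature astroglia, 9 fell and none rose, among them Mfge8 (-3.18), Ptprz1 (-1.78) and Fabp7 (-2.49). Of the reactive astrocyte list, 4 of 13 genes could be counted and Cd44 fell (-1.90). Among other non-neuronal cells, 5 of 7 genes of the oligodendrocyte lineage and 3 of 4 fibroblast genes fell, at medians of -3.21 and -1.06. Neither of the 2 endothelial and mural genes passed (median -1.64), nor did the 1 microglia gene that could be counted (-0.52). Of 16 neuron markers 6 rose and none fell (median 0.14), led by Stmn2 (1.06) and Tubb3 (1.03).

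Summed levels showed the same split for some of the lists. The 9 members summed to 764 to 783 CPM in the DHPG inputs, 1356 to 2815 CPM in the KCl inputs and 1604 to 1875 CPM in the knockdown inputs. The radial glia list summed to 1010 to 1034 CPM with DHPG and to 2323 to 4966 CPM in the KCl experiment. Neuron markers summed to 17200 to 17380 CPM with DHPG and to 13690 to 16650 CPM in the KCl experiment. Other lists overlapped between DHPG and KCl inputs. Microglia markers summed to 16.0 to 17.2 and 12.4 to 32.3 CPM, and endothelial and mural markers to 44.5 to 51.2 and 24.7 to 351 CPM. Reactive astrocyte genes summed to 13.4 to 17.0 and 14.1 to 97.9 CPM. In these bulk libraries, fewer cells of a type and fewer footprints per cell cannot be told apart, and the part of the culture's makeup in the DHPG differences was not tested.

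**Figure D3:**
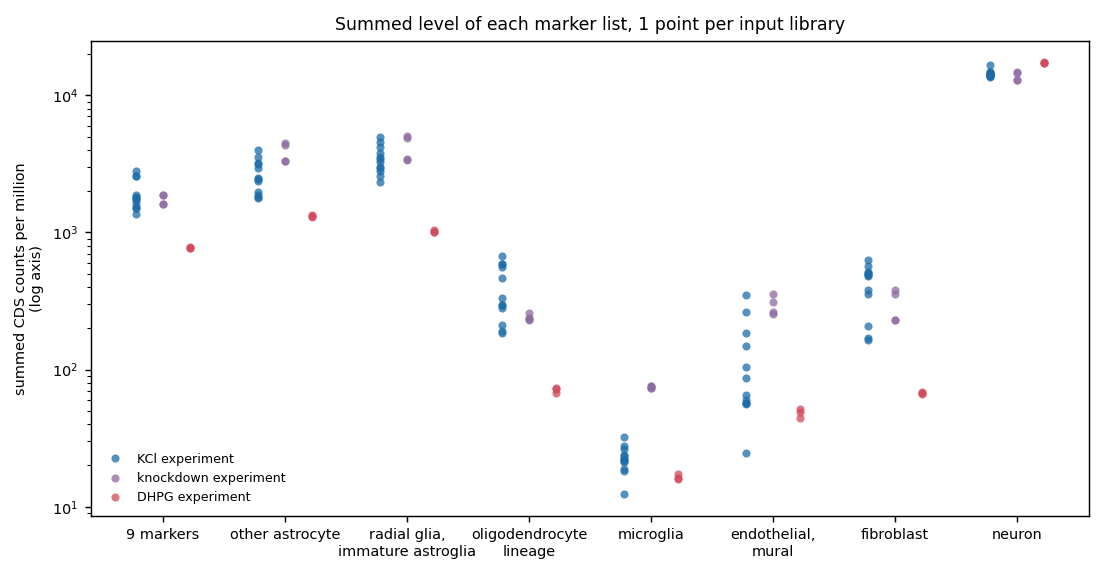
Summed levels of 8 marker lists in CPM of CDS counts (log axis), 1 point per input library, in the KCl, knockdown and DHPG experiments. The DHPG inputs lie below all other inputs for the 9 markers, other astrocyte, radial glia, oligodendrocyte lineage and fibroblast lists and above them for neurons, and the knockdown inputs lie highest for microglia.

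The genes of the glutamate and glutamine cycle did not move as a group with DHPG. Of 11 counted, 2 rose and 3 fell. Slc38a3, the glutamine exporter of astrocytes, fell by 3.36 and Glud1, glutamate dehydrogenase, by 0.78. Slc17a7, a vesicular glutamate transporter of neurons, fell by 0.75, while its relative Slc17a6 was higher by 1.02. Of 10 genes of lipoprotein handling 3 rose (Lpl 1.10, Abcg1 0.70, Vldlr 0.51) and Abca1, the cholesterol exporter that loads ApoE, fell by 1.83.

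With knockdown of eIF4G2, a single member changed in the inputs, compared as the mean over rest and KCl. Slc1a2 was at 105 and 104 CPM at rest and 85.6 and 71.1 CPM after KCl, against 331, 279, 245, 334, 198 and 153 CPM in the 6 TurboID-PSD95 inputs without knockdown. It fell by 1.47 (SE 0.23, FDR 0.00016), a 2.77-fold lower level, and stayed past the threshold when each replicate was left out (-1.63 to -1.21). Of all 13181 genes, 15.9% passed, so 1 call among 9 members is not above that background. The other glutamate transporter, Slc1a3, was at 232 to 330 CPM with and 168 to 335 CPM without knockdown (0.28, SE 0.21, FDR 0.41). The 8 members that did not pass ranged from -0.25 for Gfap to 1.15 for Aqp4. Aqp4 was at 15.5 to 21.8 CPM with and 2.08 to 20.4 CPM without knockdown (FDR 0.18), and it passed without replicate 1 of the TurboID-PSD95 cultures (1.47, FDR 0.013).

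Other astroglial genes were counted in the same comparison, again over genes that passed the filter within both experiments, of which 16.6% passed the test. Of 32 in the other astrocyte list, 7 rose and 1 fell (median 0.46, all such genes 0.00), with Slc6a11 (0.89), Megf10 (1.12) and Mlc1 (1.44) higher and the metallothionein Mt1 lower (-2.47). Ednrb (1.62) and Tnc (1.39) were higher among the radial glia genes, where 3 of 10 rose and 1 fell. Microglia markers were higher in the same libraries, where the list of 13 summed to 72.9 to 76.0 CPM with knockdown and to 12.4 to 32.3 CPM in the KCl inputs. Among neuronal genes, Slc17a7 fell by 2.28, Slc17a6 rose by 1.39, and 6 of 16 neuron markers fell while 2 rose. The part of the cell makeup in the lower Slc1a2 was not tested.

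After 1 h of KCl, the inputs of both baits together showed 1 member past the threshold, Clu, where 15.4% of 13004 genes passed. The same-numbered inputs of the baits are not independent of each other as described above, and when they were summed, 3 sums a condition, no member passed (Clu -0.59, SE 0.21, FDR 0.094), where 9.53% of genes did. Clu was at 560, 370 and 319 CPM (Pan-TurboID) and 638, 333 and 416 CPM (TurboID-PSD95) at rest, and at 210, 334 and 270 CPM and 211, 291 and 365 CPM after KCl. The ranges overlapped between 319 and 365 CPM. Clu fell by 0.61 (SE 0.18, FDR 0.023), and the call was lost without any one replicate number (-0.22, -0.76 and -0.80, FDR 0.37, 0.060 and 0.087 without replicates 1, 2 and 3). Replicate 1 holds the resting inputs with the highest sums of the members and of the astroglial and endothelial lists, and without it Aldoc was higher by 1.01 (FDR 0.0068), against 0.35 (FDR 0.44) with all libraries. Gfap differed by -1.04 (SE 0.65, FDR 0.31, 95% interval -2.31 to 0.22) and the remaining members by -0.26 to 0.35. In the pulldowns no member passed with either bait, where 6.6% of genes passed with TurboID-PSD95 and 5.03% with Pan-TurboID, and no member had an unadjusted p below 0.05. Without replicate 1, Sparcl1 was higher after KCl in TurboID-PSD95 pulldowns (0.71, FDR 0.044) and Aldoc in Pan-TurboID pulldowns (1.14, FDR 0.049).

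Under knockdown, 3 members were higher after KCl in the inputs, where 19.3% of 12224 genes passed and 8.92% rose. Clu was at 382 and 355 CPM at rest and 478 and 495 CPM after KCl (0.41, SE 0.09, FDR 0.0024). Aldoc was at 45.9 and 54.0 CPM and at 86.3 and 64.1 CPM (0.62, SE 0.20, FDR 0.029), and Apoe was at 289 and 304 CPM and at 359 and 358 CPM (0.28, SE 0.10, FDR 0.049). None of these groups of 2 overlapped, but of the members that did not pass Glul alone overlapped, so this adds nothing to the test. The share of all genes without overlap was not counted. Slc1a3 was at 232 and 246 CPM at rest and 330 and 324 CPM after KCl. With either depolarized pulldown library left out Slc1a3 differed by 0.45, and with resting pulldown replicate 2 left out Slc1a2 differed by -0.40. The calls depended on single libraries: without resting input replicate 2 all 3 were lost (Clu 0.36, Aldoc 0.73 and Apoe 0.32, FDR 0.085, 0.073 and 0.21), without resting input replicate 1 or depolarized input replicate 1 Clu alone passed, and without depolarized input replicate 2 Apoe was lost (0.28, FDR 0.19). With whole transcripts counted, the UTRs included, Clu alone passed (Aldoc 0.47, FDR 0.062, and Apoe 0.20, FDR 0.19), where 15.5% of genes did. Of the other astrocyte list 10 of 32 tested genes rose and 1 fell, and of the radial glia list 7 of 10 rose, led by Vim (0.87), Tnc (1.41), Ednrb (0.72) and Nes (0.69). Of 6 fibroblast genes 2 rose, Col1a1 and Col6a1 (0.81 and 0.80), and of 16 neuron markers 2 rose and 4 fell, among them Tubb3 (-1.02), with a median of -0.11. The part of the cell makeup in the higher members was not tested. No member passed the test of the difference between the KCl responses with and without knockdown, which 1 gene of 13181 (0.00759%) passed. For Clu this difference was 1.07 (SE 0.37, 95% interval 0.35 to 1.79, FDR 1.0).

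The baits, compared as the mean over rest and KCl, gave no call for any astrocyte marker. Between TurboID-PSD95 and Pan-TurboID, no member passed in the inputs, the pulldowns or the enrichment of pulldown over input, where 0.0%, 0.0154% and 0.00769% of 13004 genes passed. At an unadjusted p below 0.05, the counts were 0, 1 and 0 members in the edgeR fit, beside 197, 397 and 169 of all genes. That member was Sparcl1, whose log2 difference between pulldowns was -0.35 (SE 0.16, FDR 1.0). For the difference in enrichment, the 95% interval was -0.60 to 0.27 for Sparcl1 and -0.46 to 0.66 for Glul, and it was wider for Gfap (-1.41 to 2.26) and Aqp4 (-1.52 to 2.11). With the replicate number within condition as a block, again no member passed the FDR, and 1, 2 and 1 members had an unadjusted p below 0.05, beside 617, 802 and 443 of all genes. In that edgeR fit Apoe was higher with TurboID-PSD95 by 0.44 in the pulldowns (SE 0.13, FDR 0.26) and by 0.48 in enrichment (SE 0.18, 95% interval 0.13 to 0.83, FDR 1.0), Sparcl1 differed by -0.38 in the pulldowns (FDR 0.50) and Slc1a2 by -0.30 in the inputs (FDR 0.98).

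Between pulldown and input the members went different ways. Of the 12 pairs of the KCl experiment, Apoe and Sparcl1 were lower in the pulldown in all and Slc1a2 and Aldoc higher in all, while the median log2 ratios of Glul and Clu were -0.11 and -0.19. The share of all genes with 1 direction in all 12 pairs was not counted. These pairs are not independent of each other, since same-numbered inputs of the baits deviated together (r 0.28 to 0.65). Ratios were formed between same-numbered libraries where both held at least 10 counts. In the KCl experiment such libraries deviated together from their group means in all 12 cases (r 0.35 to 0.71 over genes), so the fit with the replicate number within each condition as a block is given beside the one without it. In the DHPG and knockdown experiments they did not (-0.20 to 0.06), the number is only a name, and pulldowns are set against inputs as groups. Without the block, Sparcl1 alone passed in each of the 4 comparisons, where 25.1% of genes passed with TurboID-PSD95 at rest, 12.6% after KCl, 9.56% with Pan-TurboID at rest and 8.88% after KCl. With the block, 5, 5, 4 and 4 members passed, where 38.6%, 30.3%, 28.1% and 27.9% of genes did.

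**Figure D4:**
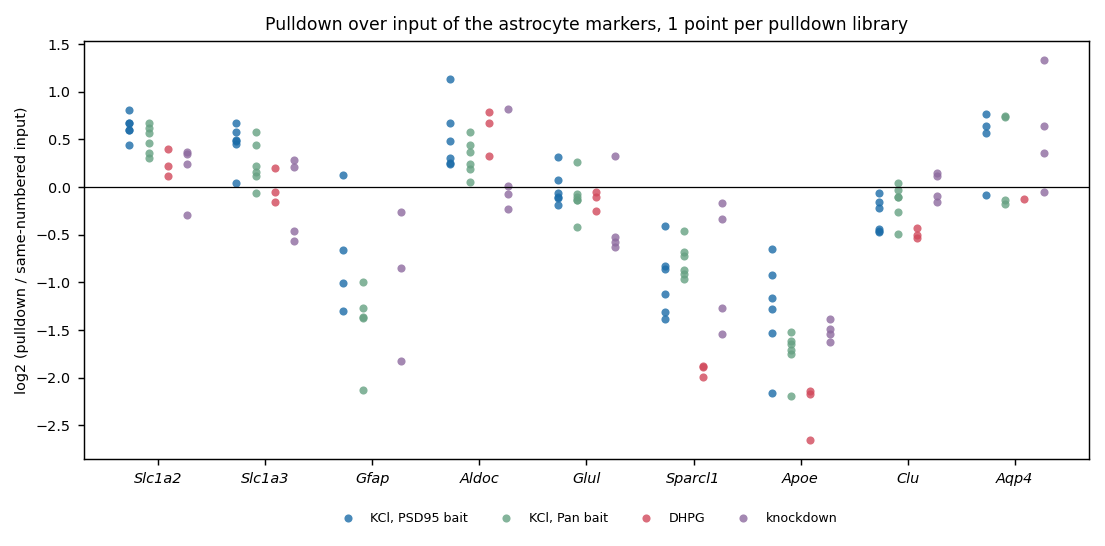
Log2 ratio of pulldown over same-numbered input for the 9 astrocyte marker genes, 1 point per pulldown library with at least 10 counts in both, where numbers pair the libraries in the KCl experiment and are only names with DHPG and knockdown. Of the KCl points, those of Apoe and Sparcl1 all lie below 0, 8 of 9 of Gfap do, and those of Slc1a2 and Aldoc all lie above 0.

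Of the secreted members, whose CDS starts are printed above, Apoe stood furthest below its input. It was lower in 12 of 12 KCl pairs, with a median log2 ratio of -1.58 (range -2.19 to -0.65). Resting TurboID-PSD95 pulldowns held 306, 194 and 59.1 CPM of Apoe against 741, 368 and 264 CPM in their inputs, and with Pan-TurboID 195, 109 and 48.8 CPM stood against 638, 314 and 222 CPM. In the blocked fit Apoe fell by 1.37, 1.06, 1.77 and 1.62 with TurboID-PSD95 at rest and after KCl and with Pan-TurboID at rest and after KCl (FDR 4.9e-06, 0.00010, 1.0e-06 and 7.9e-06). Without the block the same 4 differences had FDRs of 0.16, 0.30, 0.094 and 0.10.

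Sparcl1 was also lower in 12 of 12 KCl pairs, with a median of -0.86 (range -1.39 to -0.41). At rest, TurboID-PSD95 pulldowns held 220, 168 and 133 CPM of Sparcl1 against 391, 364 and 329 CPM in the inputs. Its fall passed without the block in all 4 comparisons of the KCl experiment (1.03 at rest and 0.75 after KCl with TurboID-PSD95, 0.74 and 0.70 with Pan-TurboID, FDR 0.0049 to 0.049). With 1 replicate number left out, the value kept its direction (-1.14 to -0.54). The call was lost without replicate 3 in the first comparison (-0.93, FDR 0.17), without replicate 1 or 3 in the second (-0.54 and -0.73), without replicate 2 or 3 in the third (-0.62 and -0.80) and without any one of them in the fourth (-0.61, -0.64 and -0.83). With whole transcripts counted, it passed without the block in the first comparison alone (-0.78, FDR 0.013; -0.57, -0.52 and -0.51, FDR 0.084, 0.10 and 0.12 in the others), and with the block in all 4 (FDR 0.00081 to 0.031). Clu, the third secreted member, had a median log2 ratio of -0.19 and was lower in 11 of 12 KCl pairs. It passed in the blocked fit for TurboID-PSD95 at rest (-0.43, FDR 0.029), but not with whole transcripts counted (-0.18, FDR 0.35).

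Gfap, a cytosolic filament protein, was lower in 8 of 9 KCl pairs with a median of -1.27. With the block it fell with Pan-TurboID at rest by 1.39 and after KCl by 1.30 and with TurboID-PSD95 after KCl by 0.99 (FDR 0.00088, 0.0036 and 0.024), the last of which was lost with whole transcripts counted (-0.75, FDR 0.085). The glutamate transporters leaned the other way. Slc1a2 was higher in 12 of 12 KCl pairs, with a median of 0.60, and passed with the block in all 4 comparisons of the KCl experiment (0.68, 0.66, 0.60 and 0.50, FDR 0.0017 to 0.024). Resting TurboID-PSD95 pulldowns held 527, 490 and 333 CPM of Slc1a2 against 331, 279 and 245 CPM. Slc1a3 was higher in 11 of 12 pairs (median 0.44) and passed with the block in 1 comparison, TurboID-PSD95 after KCl (0.60, FDR 0.011). Aldoc was higher in 12 of 12 pairs (median 0.34) and passed in TurboID-PSD95 at rest (0.69, FDR 0.014). Glul, the other enzyme, was lower in 9 of 12 pairs with a median of -0.11. Aqp4 was higher in 5 of 8 pairs with a median of 0.60.

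With DHPG, 8 members were tested for pulldown over input, and Gfap fell under the filter on low counts. There, 5 of the 8 passed where 79.7% of 12258 genes did, so the number of calls is below that background. Apoe fell from 40.4, 39.1 and 38.7 CPM to 6.42, 8.69 and 8.78 CPM (-2.08, SE 0.13, FDR 5.2e-11), and Sparcl1 from 295, 317 and 306 CPM to 73.9, 86.4 and 82.9 CPM (-1.70, SE 0.07, FDR 4.2e-13). Clu was lower by 0.28 (FDR 0.0014), and Slc1a2 (0.46, FDR 7.7e-06) and Aldoc (0.80, FDR 0.00067) were higher. The pulldown deficit of Sparcl1 was larger with DHPG than in resting cultures by 0.73 (SE 0.19, FDR 0.031), where 6.81% of genes differed. Leaving out any of the 3 DHPG replicates or resting replicate 2 ended this call, with the difference between -0.75 and -0.67. For Apoe the difference of deficits was -0.89 (SE 0.77, FDR 0.60), and with the replicate number as a block, which pairs the resting but not the DHPG libraries, it was -0.79 (SE 0.25, FDR 0.036). The neuron list moved in the same test, with 8 of 16 markers lower and none higher (median -0.66).

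With knockdown, Apoe was lower in the pulldowns, by 1.32 at rest (FDR 3.1e-10) and 1.47 after KCl (FDR 6.1e-11). The pulldowns held 111 and 108 CPM against 289 and 304 CPM at rest, and 124 and 116 CPM against 359 and 358 CPM after KCl. At rest Glul also passed (-0.49, FDR 0.0095), which made 2 of 9 members where 45.5% of genes passed, and Glul did not pass without resting input replicate 2 (-0.47, FDR 0.057) or with whole transcripts counted (-0.34, FDR 0.065). After KCl 5 of 9 passed where 48.8% of genes did, with Gfap (-2.02, FDR 0.00035) and Sparcl1 (-1.29, FDR 6.4e-10) lower and Aqp4 (0.96, FDR 0.013) and Slc1a2 (0.46, FDR 0.035) higher. Aldoc passed only in other settings, among them removal of a trend with CDS length (0.66, FDR 0.013). Slc1a3 differed by -0.49 without depolarized pulldown replicate 1 and by 0.41 without replicate 2. Sparcl1 in the pulldowns was at 280 and 312 CPM at rest and at 136 and 116 CPM after KCl, while its inputs lay between 328 and 353 CPM. Aqp4 and Slc1a2 did not pass without depolarized input replicate 2 (0.83, FDR 0.099, and 0.33, FDR 0.24), nor, respectively, without depolarized pulldown replicate 2 (0.59, FDR 0.19) and replicate 1 (0.31, FDR 0.26). No member differed in enrichment between knockdown and no knockdown as the mean over rest and KCl, where 1.8% of 13181 genes did. The 9 differences ranged from -0.52 for Slc1a3 to 0.34 for Clu, and none had an unadjusted p below 0.05. With the replicate number within condition as a block, still none passed the edgeR FDR, where 7.3% of genes did. In that fit 3 members had an unadjusted p below 0.05, Slc1a3 (-0.55, FDR 0.054), Slc1a2 (-0.43, FDR 0.090) and Clu (0.34, FDR 0.13), although knockdown numbers do not pair the libraries. Opposite shifts at rest and after KCl cancel in such a mean, and each condition was not tested apart. For Sparcl1 without knockdown, TurboID-PSD95 pulldowns at rest held 220, 168 and 133 CPM against 391, 364 and 329 CPM in inputs. After KCl they held 120, 316 and 194 CPM against 313, 421 and 352 CPM.

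Other astroglial genes were counted in the same pulldown comparisons, in the fits without the block only. Of the 12 genes of radial glia and immature astroglia, none rose in the KCl experiment, and 4, 2, 5 and 3 fell with TurboID-PSD95 at rest and after KCl and with Pan-TurboID at rest and after KCl, with medians of -0.87, -0.67, -0.97 and -0.84, where 25.1%, 12.6%, 9.56% and 8.88% of all genes passed. Of 16 neuron markers 1 rose in each of these comparisons and 7, 1, 1 and 1 fell, with medians of -0.63, -0.42, -0.33 and -0.30. Fabp7, a fatty acid binding protein (-1.63), Dbi, which binds acyl-CoA (-2.09), and Ddah1 (-0.77) fell with Pan-TurboID at rest. Of 35 other astrocyte genes, 6, 3, 6 and 1 fell in the same order of comparisons, and 1 rose, with TurboID-PSD95 at rest. Those that fell with Pan-TurboID at rest included Sox9, Sox2 and Hes5, which are nuclear proteins, and Cst3 (-0.95), a secreted protease inhibitor. With knockdown, Cst3 was higher in the pulldown at rest (0.92, FDR 7.8e-09) and lower after KCl (-1.44, FDR 9.2e-12). Of 12 genes of the glutamate and glutamine cycle none fell and 2 or 3 rose in each comparison of the KCl experiment, among them the transporters Slc38a1 and Slc17a6 (1.13 and 1.08 with Pan-TurboID at rest).

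The counts in the 5′ UTR gave a readout apart from the CDS. Footprints were counted by their 5′ ends with no offset, so ribosomes on the first codons also fall in this region. Over all libraries the 5′ UTR held 22.2% of the transcript's counts for Aldoc, 14.7% for Slc1a2, 11.1% for Slc1a3, 10.1% for Apoe and Sparcl1, 8.66% for Glul and 3.55% for Clu, where the median gene had 13.7%. Gfap has 14 bases of annotated 5′ UTR and held 0.67%. The 3′ UTR held at most 1.32% in any member (Aqp4).

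This share was lower in the pulldown in 12 of 12 KCl pairs for Slc1a2, Slc1a3, Aldoc and Glul and in 11 of 12 for Clu, and for these 5 the pulldowns lay below the inputs with no overlap with DHPG and with knockdown at rest and after KCl. For Slc1a2 the median over all libraries was 21.7% in inputs and 5.51% in pulldowns, and for Aldoc 28.8% and 8.52%. For Sparcl1 and Apoe it was lower in 10 and 11 of 12 KCl pairs, with medians over all libraries of 11.4% and 8.83% and of 10.8% and 7.53%, and Apoe was higher in the pulldowns with knockdown after KCl. Summed over all genes it was lower in 12 of 12 KCl pairs as well, with no overlap in the other experiments (medians 20.2% and 6.18%), so the difference itself is not particular to the members. It touches the ratios above. When whole transcripts were counted in place of the CDS, the median log2 ratio over the KCl pairs was 0.38 for Slc1a2, -0.72 for Sparcl1 and -1.44 for Apoe. For Aldoc it was 0.07, higher in 8 and lower in 4 pairs, and its call with TurboID-PSD95 at rest was lost (0.44, FDR 0.098, with the block), while it passed with knockdown after KCl (0.46, FDR 0.035). Slc1a3 passed with the block for TurboID-PSD95 at rest (0.42, FDR 0.043). Glul was higher in 7 and lower in 5 pairs (median 0.02). For its DHPG pulldowns over inputs, the edgeR fit with TMM gave 0.19 (FDR 0.024). The plain log2 ratios of the same-numbered DHPG libraries were -0.139, -0.035 and 0.022, so the direction depends on the scaling. Clu was higher in 6 and lower in 6 (median -0.02), was lower with DHPG (-0.16, FDR 0.042) and was higher with knockdown at rest (0.23, FDR 0.045) and after KCl (0.33, FDR 0.0052), where its CDS had not passed. Aqp4 was higher in 9 of 9 pairs and passed with the block for TurboID-PSD95 after KCl (1.33, FDR 0.017) and Pan-TurboID at rest (1.24, FDR 0.026).

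**Figure D5:**
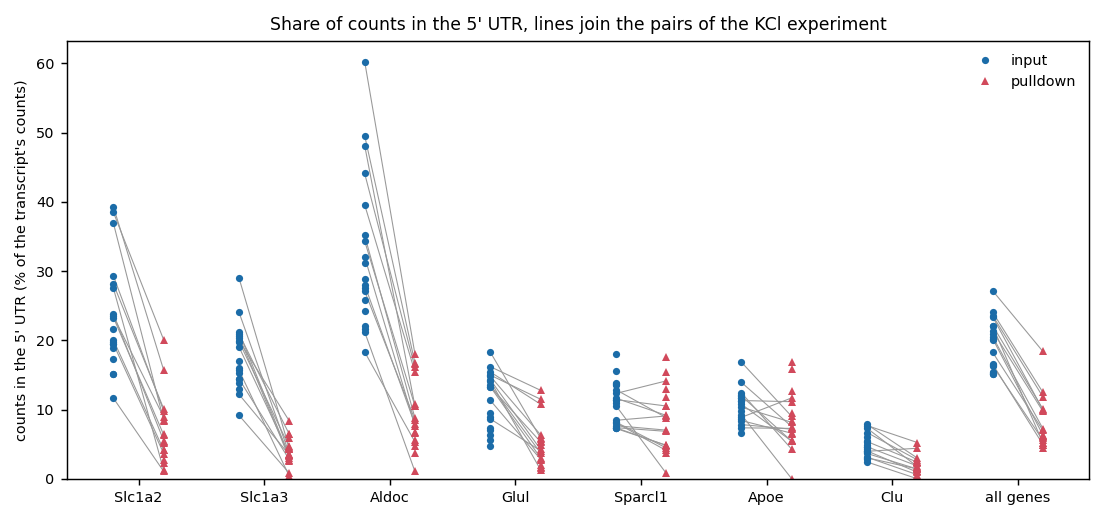
Share of the counts of a transcript that fell in the 5′ UTR (percent), in inputs (circles) and pulldowns (triangles), with lines that join the pairs of the KCl experiment, for 7 astrocyte marker genes and for all genes together. The medians fell from 21.7% to 5.51% for Slc1a2 and from 20.2% to 6.18% for all genes, and from 10.8% to 7.53% for Apoe.

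Among 7702 other genes with a mean log2 CPM of at least 4, the 5 whose 14 group means were most like the mean of the members were Mfge8 (r = 0.99), Aldh1l1 (0.97), Col5a1 (0.96), Col1a1 (0.95) and Egfr (0.95). Mfge8 and Aldh1l1 stood on the astroglial lists, and the collagens are fibroblast genes. Over 38 libraries, the genes most like Apoe were Fabp7 (0.97), Sox9 (0.95) and Mfge8 (0.94), and those most like Aqp4 were Gja1, Ednrb and Slc4a4 (0.87 to 0.89), all on the astroglial lists. Those most like Slc1a2 were Pcsk5 (0.94), Slc17a7 (0.91) and Slc24a2 (0.90), none on an astroglial list, and Slc17a7 is a gene of excitatory neurons. Those of Sparcl1 were Tpm3, Cmpk1 and Cd99l2 (0.92), and those of Glul were Acta2 (0.76), Vim (0.74) and Tagln (0.73). The points share depth and the offset between experiments, and the correlations are descriptions.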

How the data were processed

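According to their methods, the authors trimmed reads, cut molecular identifiers off, aligned reads to mm10 with Rsubread and counted them with plastid. Per the file headers, footprint 5′ ends were counted per exon segment, for reads of 25 to 100 bases with no offset. The counts were deposited as whole numbers for each segment, kept apart for coding sequence and for the UTR on either side, with no pooling of libraries. Columns that the same files hold of counts per base and RPKM were not used. Use of strand and treatment of reads with several alignments are not given in the sources used here. An end that is counted upstream of its codon moves start-proximal ribosomes into the 5′ UTR and lowers CDS counts. Of 67238 coding transcripts, 66750 (99.27%) were matched to symbols of GENCODE M21, and the longest transcript of each gene was used. Segments of 28 bases with an exact copy elsewhere in the genome covered 2.1% of the Sparcl1 CDS and none of the other members' CDS.

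CDS counts were tested with edgeR 4.0.16 (R 4.3.3; quasi-likelihood F test, robust, TMM, filterByExpr) in fits of 24 libraries (KCl), 6 (DHPG), 12 (DHPG against rest), 8 (knockdown) and 20 (knockdown against TurboID-PSD95). Each SE is the fold change divided by the square root of F, and 95% intervals are normal intervals around the fold change. Alternatives were RLE size factors, DESeq2 1.42.0, the likelihood ratio test of the study's methods, no filter, the replicate number as a block, the transcript with the highest count, removal of a trend with CDS length, each replicate left out and, added after seeing the data, the block within condition, whole transcripts, both baits' inputs of a number summed and the difference of KCl responses. Scripts were tested on simulated data. Libraries held 5906281 to 35643247 counts over all segments, and Poisson intervals cover counting error only.

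Groups follow the labels. Descriptions there place DHPG inputs and knockdown libraries in the cytosol, while the virus field, which was used, gives PSD95-TurboID. The methods describe input and pulldown as parts of one monosome fraction, and the labels do not say which libraries belong together. Same-numbered pulldown and input of the KCl experiment deviated together (r 0.35 to 0.71, 12 pairs), as did same-numbered inputs of the baits in a condition (0.28 to 0.65), but not resting with depolarized inputs (-0.20 to 0.16), DHPG pairs (-0.20 to 0.06) or knockdown pairs (0.01 to 0.02). No libraries of a group were alike within sampling noise, with a chi-square per gene of 8.61 to 47.5 (KCl), 2.81 to 4.65 (knockdown) and 1.48 to 8.88 (DHPG). DHPG and knockdown libraries thus mostly lay closer to each other, and whether they hold the spread between cultures is not known.

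The members and lists were chosen with earlier results of these data known. Named besides the members are Dlg4, Eif4g2 and Fos as checks, up to 4 genes with the smallest p in each other list and the genes most like the members, with a mean log2 CPM of at least 4 (0.5 added to CPM). CDS starts were read from GRCm38.p6 with the positions of the longest transcripts.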

Additional observations from a re-analysis of the deposited data

Results flagged for a closer look

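The deficit of Sparcl1 in pulldowns differed between DHPG-treated and resting TurboID-PSD95 cultures by -0.73 on the log2 scale (SE 0.19, edgeR FDR 0.031), which drew attention because the same contrast was of unequal size in the groups. Sparcl1 was at 73.9, 86.4 and 82.9 CPM in the DHPG pulldowns against 295, 317 and 306 CPM in the inputs, and at 220, 168 and 133 CPM against 391, 364 and 329 CPM at rest. The call was lost without any 1 DHPG replicate or without resting replicate 2. In the same test 8 of 16 neuron markers were lower and none higher (median -0.66). The groups come from separate experiments, and treatment and experiment cannot be told apart.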

How the results depend on the processing

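Counts below are members of 9 past an FDR of 0.05. For pulldown over input with TurboID-PSD95 at rest, the count of 1 became 2 with the replicate number as a block, 5 with the block within condition and 4 with whole transcripts and that block, and it ranged from 0 to 1 with 1 replicate left out, when calls over all genes ranged from 0 to 2892. After KCl it became 2, 5 and 5 with the same settings, 0 with whole transcripts alone, and 0 to 1 with 1 replicate left out. With Pan-TurboID at rest it became 2 with the replicate block, 4 with the block within condition, 5 with whole transcripts and that block, 0 with whole transcripts alone, 2 with DESeq2, 2 with the likelihood ratio test, and 0 to 1 with 1 replicate left out. With Pan-TurboID after KCl it became 4 with the block within condition, 4 with whole transcripts and that block, 0 with whole transcripts alone, 2 with DESeq2, 0 with no filter on low counts and 0 with any replicate left out. The difference in enrichment between DHPG and rest went from 1 to 2 with the replicate block and to 0 to 1 with 1 replicate left out. KCl with knockdown went from 3 to 1 with whole transcripts and to 0 to 4 with 1 library left out. KCl in inputs went from 1 to 0 with both baits' inputs of a number summed. With 1 replicate left out, the count ranged from 0 to 1 for KCl in inputs and in the pulldowns of either bait, from 1 to 2 for knockdown in inputs and for knockdown pulldowns over inputs at rest, and from 3 to 6 for those after KCl. It ranged from 6 to 7 for DHPG inputs against rest, with Gfap among those counted, and from 5 to 6 for DHPG pulldowns over inputs. Of 232 repeats of 27 called member results without a replicate left out, 218 kept direction and call, 14 lost the call and 0 turned direction, and of 151 with 1 left out, 123 kept the call and 28 lost it. DHPG and knockdown replicate numbers do not pair their libraries, and the block there is a check only. Gfap and Aqp4 had down to 1 count in a library, which limits their ratios, and 2 or 3 libraries a group limit all tests.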
